A study of Drosophila melanogaster and Drosophila mauritiana and Drosophila melanogaster x Drosophila mauritiana with 7 samples.

Results

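Transposon small RNAs placed around the centromere of chromosome 3 were described in testes. The testes were those of a Drosophila melanogaster strain, of Drosophila mauritiana and of their F1 hybrid. The rule took transposon small RNA sequences with exactly 1 hit in the D. melanogaster build dm6, on arm 3L from position 22900000 inward or on arm 3R up to position 4200000, which is the pericentromeric heterochromatin of the chromosome. It found 11141 distinct sequences among 45342 single-hit sequences and 350729 transposon sequences in all. Of these, 1895 were read in the hybrid, 6632 in D. melanogaster and 2767 in D. mauritiana.

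The D. melanogaster parent was the strain P{}Hmr1, called Hmr1 here, which carries a mutation in Hmr, a gene known for the lethality and sterility of hybrids. The other parent was a wild-type D. mauritiana stock, and the hybrids were F1 offspring of P{}Hmr1 and that stock; the labels do not give which species was the mother. RNA came from dissected testes of adults aged 0 to 5 days, and the protocol gives 19 to 29 nt as the size cut from a gel, while the library titles start the range at 18 nt. The study set piRNA production in the hybrid against that in its parents, with 1 library per group. No difference therefore has a replicate check, no p-value is given, and the 95% intervals, written in brackets, cover counting error only. Whole testes were used, so fewer cells of a type and less small RNA per cell cannot be told apart.

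piRNAs are small RNAs bound by Piwi proteins, which use them to find and silence transposon transcripts in the gonads. Many are cut from long transcripts of piRNA clusters, stretches of heterochromatin near centromeres and telomeres that hold broken transposon copies. piRNAs of this primary route often start with U, written T here. In the ping-pong cycle the Piwi proteins Aubergine and AGO3 cut transcripts of opposite strands in turn, which leaves pairs whose 5′ ends overlap by 10 nt and partners with A at base 10. A cluster read from one strand gives small RNAs of one strand, and a dual-strand cluster gives both.

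The sequences below carry the main observations. The first 3 were the most abundant of each library in the region. Capitals mark base 1 and base 10, and all coordinates are on dm6 with the strand of the hit.
Hybrid, Gypsy_I-int, 3L:26154178-26154204, minus strand: TaaaccaatGtttaggaccacaccagc
Hmr1, PROTOP_A, 3L:23841428-23841453, minus strand: GttttgatcAattggcaccatgcgaa
D. mauritiana, DMRT1C, 3L:23429791-23429813, minus strand: TcgcttccaAtggtctcttgggg
The hybrid sequence had 13 reads there and 2 in each parent library. It lies in an internal part of gypsy, an endogenous retrovirus. The Hmr1 sequence had 88 reads in Hmr1, 1 in the hybrid and 1 in D. mauritiana. It lies within the span of the gene CG40470 and belongs to a P-class DNA transposon. The D. mauritiana sequence had 75 reads in D. mauritiana and 0 in the other libraries. It is annotated as a LINE of the R1 class.

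The next sequences stand for the windows with most reads and are marked in the same way. The first 2 are the most abundant sequences of the leading D. mauritiana windows, and the third is the most abundant Hmr1 sequence of the leading Hmr1 window. The last, from ZAM, and the Hmr1 sequence were picked after their values were seen.
Gypsy8_I-int, 3R:3384535-3384558, plus strand: AacattcctTttccgttgccgagt
TRANSIB1, 3L:27127341-27127365, minus strand: TtgatgcccAtgaactaacaccttg
NINJA_LTR, 3L:24881306-24881329, minus strand: TagcttttcAttggaggacacact
ZAM_I-int, 3R:2834789-2834815, plus strand: TattaccggTtattgattttacgatac
Each was read in 1 of the 3 libraries. The Gypsy8 sequence had 49 reads and the TRANSIB1 sequence 37 in D. mauritiana, the NINJA_LTR sequence had 11 in Hmr1, and the ZAM sequence had 8 in the hybrid. The rule for sequences also named the top sequence of the Hmr1 window after scaling, a NINJA_I-int sequence with 4 reads, and that of a MICROPIA_I-int window, with 4 reads as well. All of those reads were from D. mauritiana.

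Pericentromeric chromosome 3 took the smallest share of transposon small RNAs in the hybrid. The region held 2021 reads in the hybrid library, 7765 in Hmr1 and 4426 in D. mauritiana, out of transposon totals of 175982, 441146 and 133204 reads. That is 1.15% (1.099 to 1.199) of transposon reads in the hybrid library, 1.76% (1.72 to 1.799) in that of Hmr1 and 3.32% (3.23 to 3.42) in that of D. mauritiana. Per 1000000 transposon reads, the unit of every level and ratio below, the hybrid level was 0.652 (0.621 to 0.685) of that in Hmr1 and 0.346 (0.328 to 0.364) of that in D. mauritiana. Hmr1 stood at 0.530 (0.510 to 0.550) of D. mauritiana. The hybrid thus lay below both parents on this scale.

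The direction against Hmr1 turned with the reference. Chromosome X held 71.3% of the hybrid's single-hit reads, against 30.7% in Hmr1 and 13.1% in D. mauritiana. Among single-hit reads outside X, the region took 36.3% (35.03 to 37.6) in the hybrid library, 28.4% (27.9 to 29.0) in that of Hmr1 and 46.7% (45.7 to 47.7) in that of D. mauritiana. On that scale, added after the values were seen, the hybrid was at 1.28 (1.22 to 1.34) of Hmr1 and 0.778 (0.737 to 0.820) of D. mauritiana. What moved the share of X was not tested. Other compartments went both ways. Hybrid single-hit reads were at 4.48 times (3.89 to 5.15) the Hmr1 level on chromosome 3 outside the limits and at 0.451 (0.432 to 0.472) on chromosome 2.

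Both arms took part to a like degree. Arm 3L held 53.8% (51.6 to 56.0) of the region's reads in the hybrid library, 54.7% (53.6 to 55.8) in that of Hmr1 and 56.0% (54.5 to 57.5) in that of D. mauritiana, and these intervals overlap. Reads were spread over nearly the whole stretch in each library. Per megabase of 3L between 23 and 28 Mb the hybrid held 188 to 254 reads, Hmr1 604 to 1309 and D. mauritiana 326 to 701. The limits fell where single-hit sequences thinned out. On 3L, 16 sequences lay in the first 100 kb inside the limit and 1 in the 100 kb outside it; on 3R these counts were 41 and 4.

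Most sequences were read once. A single read stood behind 96.1% of sequences in the hybrid library, 92.5% in Hmr1 and 80.9% in D. mauritiana, and the most abundant sequence had 13, 88 and 75 reads. Few sequences were shared between libraries. Of the 11141 sequences, 10994 (98.7%) were read in exactly 1 library and 6 in all 3. The hybrid shared 104 of its 1895 sequences (5.49%, 4.51 to 6.61) with Hmr1 and 23 (1.21%, 0.771 to 1.82) with D. mauritiana. Hmr1 had 7765 reads in which a match could be found and D. mauritiana 4426, so the shares do not stand on equal depth. Sharing was not counted over the rest of the table, so low sharing is not shown to be particular to the region.

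The D. mauritiana reads were placed in fewer windows of build dm6 than those of the other libraries. The region was split into windows of 10 kb, and each read was put in the window of its 5′ end; 787 windows held reads, 600 of them in the hybrid library, 716 in Hmr1 and 490 in D. mauritiana. The 10 windows with most reads of each library took 15.6% (14.1 to 17.3) of reads in the hybrid library, 20.97% (20.1 to 21.9) in that of Hmr1 and 31.3% (29.95 to 32.7) in that of D. mauritiana. At least 20 reads were found in 7 windows in the hybrid library, 82 in Hmr1 and 46 in D. mauritiana. These counts follow depth as well as level, since 20 reads are a smaller share of the Hmr1 library. Of the 122 windows with at least 20 reads somewhere, 71 reached that count in Hmr1 alone, 34 in D. mauritiana alone and 10 in both parents. None of them reached it in all 3 libraries. Windows outside the region were not split in this way.

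**Figure D1:**
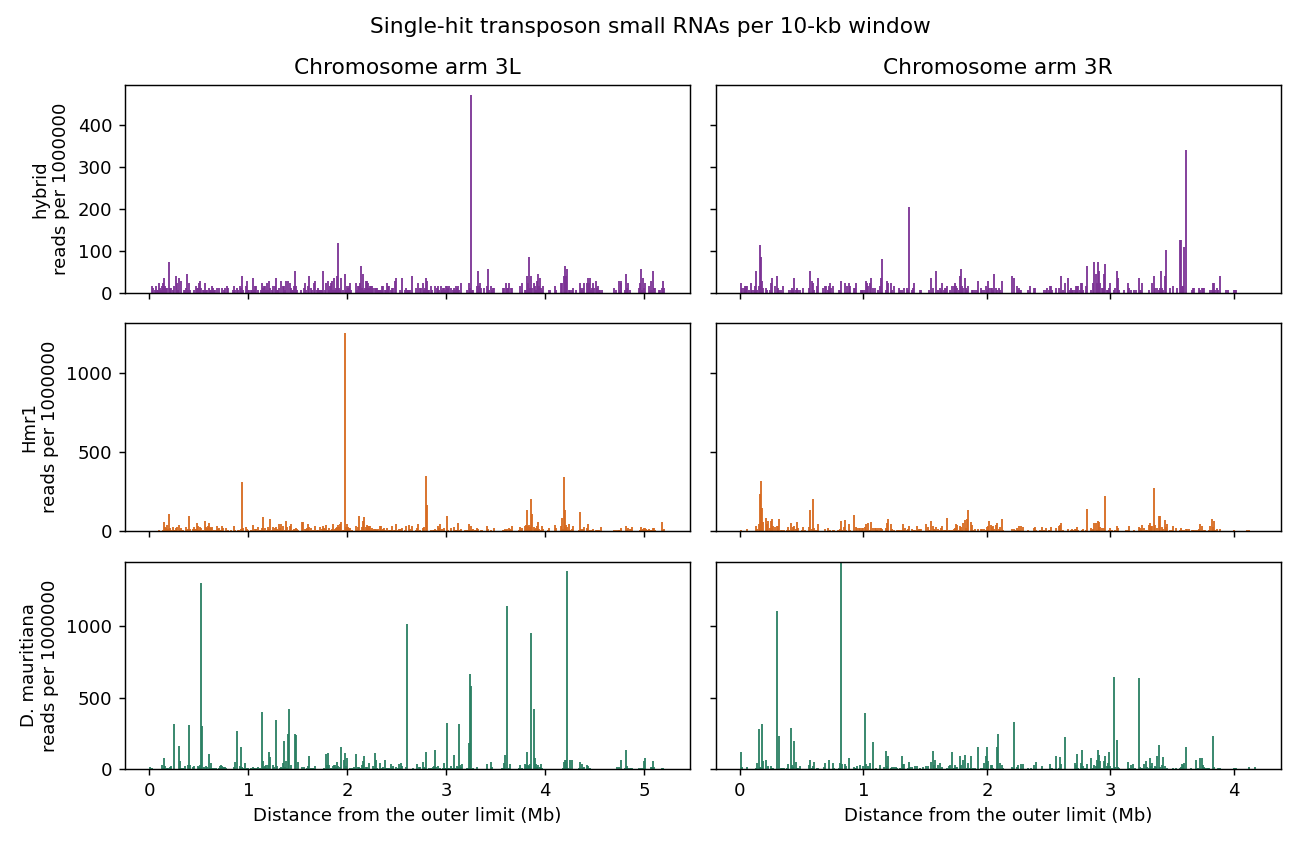
Single-hit transposon small RNAs per 10-kb window (reads per 1000000 transposon reads, vertical axis, its own range for each library) against distance from the outer limit (Mb), for arm 3L on the left and 3R on the right. The highest hybrid window, on 3L, reaches 472 per 1000000, the highest Hmr1 window 1249 and the highest D. mauritiana window 1562, and the highest window lies at a different place in each library.

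D. mauritiana had the largest local peaks of the region on build dm6. Where these reads lie in the D. mauritiana genome is not known here. Its highest window, 3R:3380001-3390000, held 208 reads there, 27 in Hmr1 and 5 in the hybrid. Most of its reads were Gypsy8_I-int, a gypsy-class LTR retrotransposon, with 168 of the D. mauritiana reads. D. mauritiana was 25.5-fold (17.0 to 39.6) above Hmr1 and 55.0-fold (23.2 to 171) above the hybrid there. A second Gypsy8 window, 3R:3900001-3910000, held 147 reads in D. mauritiana, in contrast to 14 in Hmr1 and 7 in the hybrid. Both windows overlap no gene of the dm6 gene table.

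The window 3L:27120001-27130000 held 184 reads in D. mauritiana and 10 in each of the other libraries. Of the D. mauritiana reads, 180 were TRANSIB1, a cut-and-paste DNA transposon, and 7.07% of the window's reads were on the plus strand. At 3L:23420001-23430000, D. mauritiana had 173 reads, Hmr1 9 and the hybrid 2. DMRT1C gave 172 of the D. mauritiana reads, including the sequence with 75 reads printed above. The adjoining window had 40 D. mauritiana reads, all of DMRT1C, 1 Hmr1 read and 0 hybrid reads, which put the hybrid at least 17.6-fold lower against a floor of 3 reads. A further DMRT1C window, 3L:24310001-24320000, held 56 reads in D. mauritiana, in contrast to 4 in Hmr1 and 0 in the hybrid, at least 24.7-fold lower than D. mauritiana.

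Several D. mauritiana windows were read from 1 strand and were nearly empty in the other libraries. At 3L:25500001-25510000, inside the span of the gene lovit, D. mauritiana had 135 reads, all Gypsy2-I_DM and all on the plus strand, in contrast to 0 reads in Hmr1 and 1 in the hybrid. Hmr1 was at least 149-fold lower there. At 3L:26510001-26520000, all 152 D. mauritiana reads were Gypsy_I-int on the minus strand, with 6 reads in Hmr1 and 2 in the hybrid. At 3R:2110001-2120000, within the span of Myo81F, a myosin gene, D. mauritiana had 33 reads of TOM_I-int on the plus strand and the other libraries had 0. Hmr1 was at least 36.4-fold and the hybrid at least 14.5-fold lower.

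Other named windows of D. mauritiana carried both strands. BS2, a Jockey-class LINE, gave 36 D. mauritiana reads at 3L:23780001-23790000, with 52.8% on the plus strand, 0 Hmr1 reads and 2 hybrid reads. The gene CG43968 overlaps this window, but 0 reads lay within its span. At 3R:970001-980000, also in Myo81F, D. mauritiana had 85 reads, Hmr1 10 and the hybrid 6, and Stalker2_I-int led with 43 of the D. mauritiana reads. The window 3L:26760001-26770000 had 127 reads in D. mauritiana, in contrast to 89 in Hmr1 and 7 in the hybrid. All 127 D. mauritiana reads were MICROPIA_I-int, which gave only 6 of the 89 Hmr1 reads.

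Hmr1 had its highest window at a NINJA copy. NINJA is an LTR retrotransposon of the Pao class, and 3L:24880001-24890000 held 551 Hmr1 reads, 15 D. mauritiana reads and 8 hybrid reads. NINJA_I-int gave 495 of the Hmr1 reads and NINJA_LTR 55. On the minus strand lay 539 of the 551 reads, and T came first in 48.5% (44.2 to 52.7). Hmr1 was 11.1-fold (6.67 to 19.95) above D. mauritiana and 27.5-fold (13.8 to 64.0) above the hybrid. The window alone took 7.10% of the Hmr1 reads of the region; without it the hybrid stood at 0.699 of Hmr1 over the region.

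The windows with the highest ratio of Hmr1 to D. mauritiana included NINJA copies as well. At 3L:25700001-25710000 Hmr1 had 73 reads, all on the plus strand, the hybrid 5 and D. mauritiana 0, so that Hmr1 was at least 7.35-fold above D. mauritiana. At 3L:26770001-26780000 Hmr1 had 46 reads, the hybrid 2 and D. mauritiana 0, at least 4.63-fold. The third, 3L:23100001-23110000, overlaps CkIIalpha, the catalytic subunit of casein kinase II, and had 48 Hmr1 reads, 13 hybrid reads and 0 D. mauritiana reads. PROTOP_B, a P-class DNA transposon, gave 43 of the Hmr1 reads. CkIIalpha, like the lncRNA gene CR45180 in the first of these windows, held 0 reads within its own span.

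The lowest log2 ratios of hybrid to Hmr1 were at copies of Copia2 and Batumi, where the rank rests on the pseudocount added to 0 hybrid reads. The adjoining windows 3L:24440001-24450000 and 3L:24450001-24460000 held 25 and 24 Hmr1 reads, 2 and 0 D. mauritiana reads, and 0 hybrid reads. Copia2_I-int, a copia-class retrotransposon, gave 22 and 21 of the Hmr1 reads. At 3R:3970001-3980000 Hmr1 had 28 reads, 17 of them BATUMI_I-int, D. mauritiana 3 and the hybrid 0. The hybrid was at least 3.32-, 3.19- and 3.72-fold lower than Hmr1 in the 3 windows, which is as far as its depth reaches. The NINJA window above, with 8 hybrid reads, had a better supported deficit of 27.5-fold (13.8 to 64.0).

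The hybrid had few high windows. Its highest, 3L:26150001-26160000, held 83 reads in the hybrid, 77 in D. mauritiana and 13 in Hmr1, nearly all of Gypsy_I-int. The hybrid was 16.0-fold (8.87 to 31.3) above Hmr1 and at 0.816 (0.591 to 1.13) of D. mauritiana. All 83 hybrid reads, 12 of 13 Hmr1 reads and 70 of 77 D. mauritiana reads were on the minus strand. T came first in 65.1% (53.8 to 75.2) of the hybrid reads. In this window the hybrid's level per 1000000 differed from that of Hmr1 beyond counting error and from that of D. mauritiana by less than it.

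A run of windows at the low-coordinate end of Myo81F, towards the centromere, was highest in the hybrid. The windows 3R:590001-600000, 3R:630001-640000 and 3R:640001-650000 held 60, 22 and 22 hybrid reads, 6, 7 and 3 Hmr1 reads, and 21, 2 and 1 D. mauritiana reads. The hybrid was 25.1-fold (10.9 to 71.0), 7.88-fold (3.25 to 21.8) and 18.4-fold (5.52 to 95.9) above Hmr1. Against D. mauritiana it was 2.16-fold (1.30 to 3.74), 8.33-fold (2.05 to 73.0) and 16.7-fold (2.69 to 687) higher, where the last values rest on 2 and 1 D. mauritiana reads. The leading repeats were IDEFIX_I-int, a gypsy-class retrotransposon known as a target of the flamenco cluster in the ovary, then the LINE Baggins1, then the LINE DOC5_DM.

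Over the 60 kb from 590001 to 650000 of 3R, which spans these windows and was set after their values were seen, the hybrid had 129 reads from 124 sequences, Hmr1 22 and D. mauritiana 39. All 129 hybrid reads were on the plus strand (97.2% to 100%), against 20 of 22 in Hmr1 and 27 of 39 in D. mauritiana. The reads were annotated to 17 repeats. In the hybrid 27 were Baggins1, 19 IDEFIX_I-int, 16 Gypsy10_I-int and 15 DOC5_DM, and T came first in 73.6% (65.2 to 81.0). The hybrid stood 14.7-fold (9.30 to 24.3) above Hmr1 and 2.50-fold (1.74 to 3.68) above D. mauritiana. The most abundant hybrid sequence of the stretch had 2 reads, so the total did not rest on a few abundant sequences. It is shown with bases 1 and 10 in capitals as above.
Baggins1, 3R:639561-639586, plus strand: AtcggtgctGcgagatgacttagcac

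Another window with at least 20 hybrid reads, also outside the naming rule, was 3R:2830001-2840000 in the span of the gene Pzl. It held 36 hybrid reads, all of ZAM_I-int, 15 Hmr1 reads, of which 14 were ZAM_I-int, and 7 D. mauritiana reads, all of PROTOP_A. ZAM is an endogenous retrovirus and a known target of flamenco. On the plus strand were 35 of the 36 hybrid reads, and T came first in 88.9% (73.9 to 96.9). The hybrid was 6.02-fold (3.21 to 11.8) above Hmr1.

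The last named window, 3R:4040001-4050000, was between the parents. It held 104 Hmr1 reads, 20 hybrid reads and 2 D. mauritiana reads, with DOC2_DM, a Jockey-class LINE, leading. The hybrid was 2.07-fold (1.28 to 3.54) below Hmr1 and 7.57-fold (1.84 to 66.8) above D. mauritiana, the latter on 2 D. mauritiana reads.

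**Figure D2:**
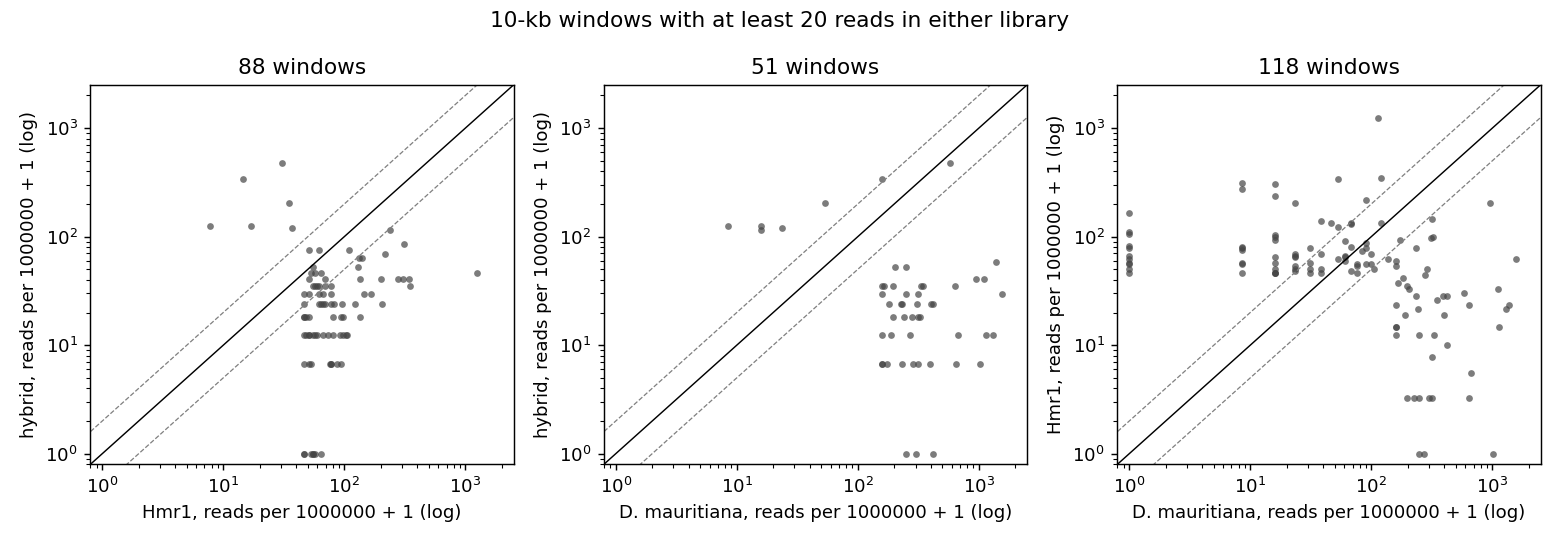
Reads per 1000000 transposon reads, plus 1, in each 10-kb window (points; both axes logarithmic) for hybrid against Hmr1, hybrid against D. mauritiana, and Hmr1 against D. mauritiana; the solid line marks equal levels and the dashed lines a 2-fold difference. Against Hmr1, 65 of 88 windows lie below the lower dashed line and 6 above the upper one.

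Counted over windows, the hybrid was mostly below each parent. Windows where either library of a comparison had 20 reads or more were compared on log2(reads per 1000000 + 1). Against Hmr1, 6 of 88 windows were at least 2-fold higher in the hybrid and 65 at least 2-fold lower, 55 of these with an interval of the ratio that excludes 1. In the single-hit windows of the rest of the genome, 26.2% were higher and 57.1% lower by the same rule, and 49.2% were lower with such an interval. The median log2 ratio was -1.88 in the region and -1.32 outside it. Most windows of the region came into this comparison through Hmr1, where 82 windows reach 20 reads against 7 in the hybrid, so the counts describe the levels and are no evidence of their own. Scaled per single-hit read outside X, 43 windows were at least 2-fold lower.

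Against D. mauritiana, 6 of 51 windows were at least 2-fold higher in the hybrid and 44 lower. The background outside the region was 44.6% higher and 47.1% lower, and the medians of the log2 ratio were -3.95 inside and -0.31 outside. Here too 46 windows reach the minimum in D. mauritiana and 7 in the hybrid. Between the parents the windows split evenly only at this minimum, which is 45.3 per 1000000 in Hmr1 and 150 in D. mauritiana. Hmr1 was at least 2-fold above D. mauritiana in 45 of 118 windows and at least 2-fold below in 47. The median log2 ratio was 0.03. Outside the region 60.7% of windows were higher and 28.0% lower, with a median of 1.78. With an interval that excludes 1, 32 windows of the region were higher in Hmr1 and 46 lower, against 53.6% and 28.0% outside. At an equal minimum of 150 per 1000000, added after seeing the data, 10 of 56 windows were higher in Hmr1 and 45 lower. These 3 comparisons share libraries in pairs and are not independent of each other.

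Over the 122 windows, the hybrid lay above both parents in 5 and below both in 21, counting windows where the interval of each ratio excludes 1. The other 96 windows did neither. By the same rule 19.4% of 232 windows outside the region were above both and 5.17% below both. A parent reached 20 reads in 118 of the 122 windows, so most of them were chosen through a parent.

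The repeats with reads in the region differed between libraries. The table named 212 repeats, of which 177 had reads in the region: 150 in the hybrid library, 164 in Hmr1 and 115 in D. mauritiana, with 105 in all 3. Gypsy-class LTR elements led in each library, with 43.9% (41.8 to 46.1) of the region's reads in the hybrid library, 28.8% (27.8 to 29.8) in that of Hmr1 and 49.5% (48.0 to 51.0) in that of D. mauritiana. Pao-class elements, to which NINJA belongs, took 21.6% (20.7 to 22.5) in Hmr1, above 7.52% (6.41 to 8.76) in the hybrid and above 5.42% (4.77 to 6.13) in D. mauritiana. R1-class LINEs took 13.3% (12.3 to 14.3) in D. mauritiana, above 5.94% (5.42 to 6.49) in Hmr1 and 3.27% (2.53 to 4.14) in the hybrid. Among single-hit reads outside the region, R1-class shares were 15.2% for Hmr1, 10.04% for D. mauritiana and 2.08% for the hybrid. The order of the parents was thus reversed there. Pao-class shares there were 11.9%, 6.45% and 1.84% in that order, again highest for Hmr1. Gypsy-class shares there were 25.04%, 34.5% and 77.6% in that order, highest for the hybrid.

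DMCR1A, a LINE of the CR1 class, was the repeat with most hybrid reads and had reads in many windows in every library. It had 160 reads in the hybrid library, 454 in Hmr1 and 301 in D. mauritiana, in 96, 147 and 88 windows. The hybrid was at 0.883 (0.733 to 1.06) of Hmr1 and 0.402 (0.330 to 0.489) of D. mauritiana. The region gave 43.1% of the repeat's single-hit reads in the hybrid library, 61.7% in Hmr1 and 62.2% in D. mauritiana. DMCR1A was therefore a repeat whose level differed from that of Hmr1 by less than counting error.

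NINJA_I-int led in Hmr1, with 1087 reads there, 42 in the hybrid and 71 in D. mauritiana. The hybrid was at 0.0969 (0.0694 to 0.132) of Hmr1 and at 0.448 (0.298 to 0.665) of D. mauritiana. Outside the region the hybrid was at 0.0650 (0.0440 to 0.0928) of Hmr1 for the same repeat. FW_DM, the F element of the Jockey-class LINEs, and Baggins1, a LINE of the LOA class, were also below Hmr1 in the hybrid. FW_DM had 65, 355 and 43 reads in the hybrid, Hmr1 and D. mauritiana, which put the hybrid at 0.459 (0.347 to 0.599) of Hmr1. Baggins1 had 86, 451 and 199 reads in that order, at 0.478 (0.375 to 0.603) of Hmr1.

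DMRT1C led in D. mauritiana, with 464 reads there, 10 in Hmr1 and 7 in the hybrid. The hybrid was at 0.0114 (0.00457 to 0.0237) of D. mauritiana. Gypsy8_I-int had 420 reads in D. mauritiana, in contrast to 208 in Hmr1 and 32 in the hybrid, MICROPIA_I-int 188, 69 and 18, and Gypsy2-I_DM 200, 38 and 23. Within the region all 3 lay below D. mauritiana in the hybrid, at 0.0577 (0.0389 to 0.0827), 0.0725 (0.0420 to 0.118) and 0.0870 (0.0539 to 0.134). Over all transposon reads, sequences with several hits included, Gypsy2-I_DM went the other way, with 4861 hybrid and 323 D. mauritiana reads. Its single-hit reads numbered 979 and 229. The unscaled counts over all transposon reads were 84 and 2513 for Gypsy8_I-int, 455 and 2515 for MICROPIA_I-int and 31 and 2004 for DMRT1C. Gypsy4_I-int had 57 reads in the hybrid library, 142 in Hmr1 and 151 in D. mauritiana. The hybrid was at 1.01 (0.727 to 1.38) of Hmr1 and at 0.286 (0.207 to 0.390) of D. mauritiana for Gypsy4. Over all transposon reads Gypsy4_I-int had 7589 hybrid, 3033 Hmr1 and 3708 D. mauritiana reads, so these ratios hold for the region only.

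Among the 10 repeats with most reads, the hybrid stood above Hmr1 with an interval that excludes 1 for Gypsy_I-int alone. It had 94 reads in the hybrid library, 24 in Hmr1 and 340 in D. mauritiana. The hybrid was 9.82-fold (6.22 to 16.1) above Hmr1 and at 0.209 (0.165 to 0.264) of D. mauritiana. On the plus strand lay 7.45% of these reads in the hybrid library, 29.2% in Hmr1 and 4.12% in D. mauritiana. The 83 reads of the 3L window described above are most of the hybrid's 94. Single-hit reads of this repeat outside the region were 11.5-fold (9.41 to 14.3) above Hmr1 as well, and there the hybrid was also 6.31-fold (4.85 to 8.33) above D. mauritiana.

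**Figure D3:**
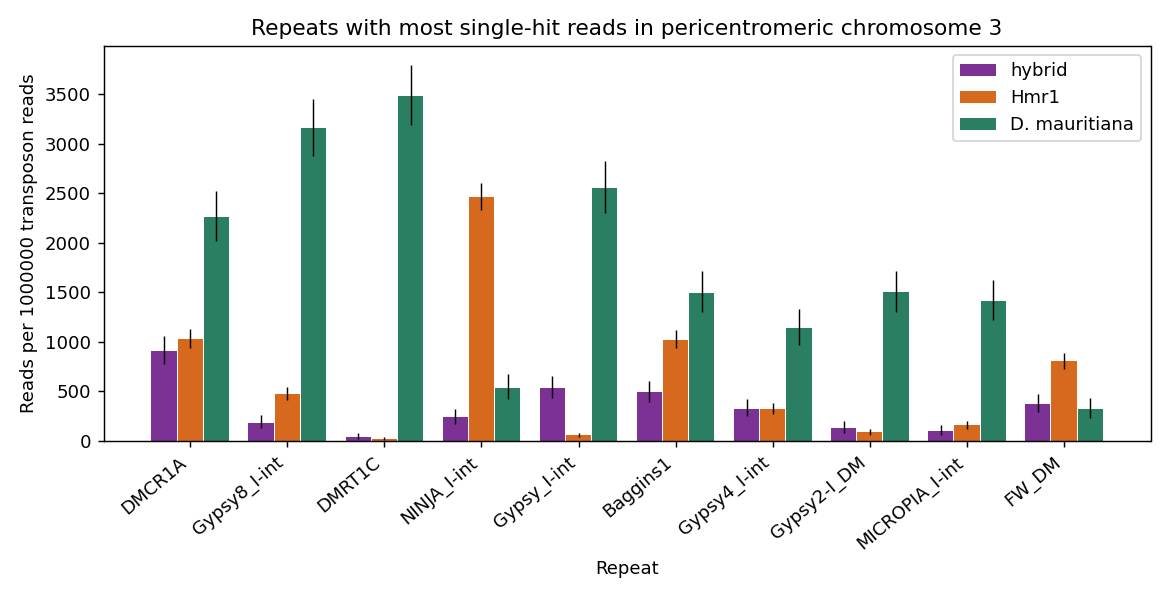
Reads per 1000000 transposon reads (vertical axis) of the 10 repeats with most reads in the region, in the hybrid, Hmr1 and D. mauritiana. Bars are single libraries. Lines are exact Clopper-Pearson 95% intervals of the repeat's share of the region's reads, scaled to the same unit. D. mauritiana is highest for DMRT1C, with 3483, and Hmr1 for NINJA_I-int, with 2464, where the hybrid has 239.

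A few further repeats, looked at after their values were seen, were above both parents in the hybrid. DNAREP1_DM, a Helitron whose short copies are scattered over the genome, had 117 reads in the hybrid library, 57 in Hmr1 and 28 in D. mauritiana. The hybrid was 5.15-fold (3.72 to 7.19) above Hmr1 and 3.16-fold (2.08 to 4.96) above D. mauritiana, with reads in 71 windows. Its single-hit reads outside the region were 5.46-fold (4.79 to 6.24) and 4.35-fold (3.599 to 5.30) above Hmr1 and D. mauritiana. STALKER4_I-int, a gypsy-class element, had 96 reads in the hybrid library, 161 in Hmr1 and 29 in D. mauritiana, 1.49-fold (1.15 to 1.94) and 2.51-fold (1.64 to 3.94) higher in the hybrid. ZAM_I-int had 46, 20 and 3 reads in that order. The hybrid was 5.77-fold (3.34 to 10.3) above Hmr1 for ZAM. Outside the region the hybrid was 2.39-fold (2.15 to 2.64) above Hmr1 for STALKER4_I-int and 10.4-fold (8.52 to 12.8) for ZAM_I-int, so the excess over Hmr1 was present there too.

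Single-hit satellite sequences of the region were read in the hybrid and Hmr1 libraries but not in that of D. mauritiana. They gave 35 reads in the hybrid and 142 in Hmr1, nearly all of SAR_DM, and 0 of 4426 in D. mauritiana, which allows a share of up to 0.0678% of the region's reads by the floor of 3 reads and 0.0833% by the exact interval. The shares were 1.73% (1.21 to 2.40) in the hybrid and 1.83% (1.54 to 2.15) in Hmr1. Over all transposon reads D. mauritiana did have 143 satellite reads with hits on this build, 25 of them single-hit. The D. mauritiana reads were placed on the D. melanogaster build, so the absence of hits here says nothing of satellites in the D. mauritiana genome.

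Over the region the hybrid's reads were split evenly between the strands, and the minus strand had more reads in both parents. The plus strand took 50.02% (47.8 to 52.2) of reads in the hybrid library, 46.2% (45.1 to 47.4) in that of Hmr1 and 45.6% (44.2 to 47.1) in that of D. mauritiana. The arms went opposite ways in the hybrid and D. mauritiana. On 3L the plus strand took 45.8% (42.8 to 48.8) for the hybrid, 44.3% (42.8 to 45.8) for Hmr1 and 38.2% (36.3 to 40.2) for D. mauritiana. On 3R it took 55.0% (51.7 to 58.2), 48.6% (46.9 to 50.2) and 55.1% (52.8 to 57.3) in that order. Single-hit reads elsewhere were 88.0%, 69.1% and 61.1% on the plus strand, and without X 54.7%, 59.9% and 57.8%. Strand is that of the genome hit, and sense or antisense to the transposon was not analysed here.

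Window by window the strands were less even. At least 90% of reads lay on 1 strand in 6 of the 7 hybrid windows with at least 20 reads, 24 of 82 in Hmr1 and 26 of 46 in D. mauritiana. The median share of the minor strand in these windows was 0% in the hybrid library, 19.3% in Hmr1 and 9.01% in D. mauritiana. Strands were not counted by window outside the region, so these values are not shown to be particular to it. Where both parents had at least 10 reads, the strand with more reads was the same in 23 of 51 windows, with 5 windows tied in a library. Between hybrid and Hmr1 it was the same in 13 of 16 windows, and between hybrid and D. mauritiana in 4 of 5.

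**Figure D4:**
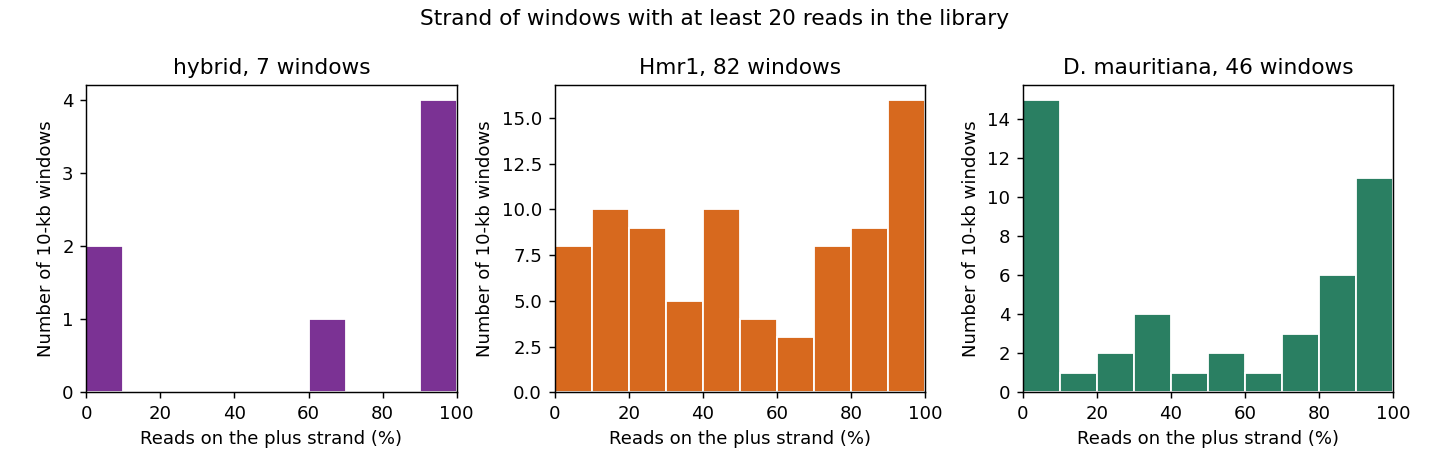
Number of 10-kb windows (vertical axis, its own range for each library) by the share of their reads on the plus strand (%, horizontal axis), for windows with at least 20 reads in the hybrid (7), Hmr1 (82) and D. mauritiana (46). Hmr1 windows fill the whole range, while 26 of 46 D. mauritiana windows and 6 of 7 hybrid windows lie in the outermost bars.

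Most reads started with T in each library. T came first in 66.4% (64.2 to 68.4) of reads in the hybrid library, 60.6% (59.5 to 61.7) in that of Hmr1 and 61.9% (60.5 to 63.3) in that of D. mauritiana. Outside the region the shares were 73.5%, 66.6% and 54.5%, and outside both the region and X they were 66.3%, 65.9% and 55.1%. In D. mauritiana the strands differed, with T first in 53.4% (51.2 to 55.6) of plus-strand and 69.1% (67.2 to 70.9) of minus-strand reads. A stood at base 10 in 31.7% (29.7 to 33.8), 33.5% (32.4 to 34.5) and 29.6% (28.3 to 31.0) of reads of the hybrid, Hmr1 and D. mauritiana. Among reads without T first, A stood at base 10 in 37.1%, 38.3% and 29.7% in that order. Among reads with T first these shares were 29.0%, 30.3% and 29.6%, so D. mauritiana showed no such difference. Lengths were spread over 23 to 30 nt, the range of the table, so length is no evidence here that the reads are piRNAs.

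Hybrid reads were longer. Reads of 23 to 25 nt made up 52.1% (49.9 to 54.3) in the hybrid library, 66.8% (65.8 to 67.9) in that of Hmr1 and 61.95% (60.5 to 63.4) in that of D. mauritiana. The most frequent length was 25 nt in the hybrid and Hmr1 and 24 nt in D. mauritiana. Hybrid single-hit reads outside the region and outside X had 52.0% (50.4 to 53.7) in that range, and those of Hmr1 67.0% (66.3 to 67.7), so a like difference between these libraries was present outside the region.

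Opposite-strand reads with a 10-nt overlap of their 5′ ends were counted as a measure of ping-pong among single-hit positions. In D. mauritiana 61 of 211 read pairs with overlaps of 1 to 20 nt overlapped by 10 nt, 28.9% (22.9 to 35.5), and in Hmr1 33 of 176, 18.8% (13.3 to 25.3). The 10-nt class had more pairs than any other overlap in both. The hybrid had 9 such pairs and 0 of them at 10 nt, which allows a share of up to 33.6% by the exact interval. Among single-hit reads outside the region the 10-nt share was 12.0% (7.84 to 17.3) of 200 pairs for the hybrid, 8.60% (7.81 to 9.44) for Hmr1 and 29.5% (23.4 to 36.2) for D. mauritiana. Without X these were 18.7% (10.6 to 29.3), 9.02% (8.04 to 10.1) and 26.7% (20.1 to 34.1). At the hybrid's depth a share like that of either parent was not detectable, and no difference from them is shown. With the 3 libraries thinned to the same transposon total, Hmr1 had 5 of 20 pairs at 10 nt and the hybrid 0 of 5.

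The pairs with most reads at a 10-nt overlap are shown with the 10 overlapping bases in capitals; they were picked after the counts were seen.
Hmr1, Invader3_I-int, 3R:2181589-2181611, plus strand: CGATTTCTTGaactttttgatcc
Hmr1, Invader3_I-int, 3R:2181574-2181598, minus strand: CAAGAAATCGagaaactgctggaaa
D. mauritiana, DMRT1B, 3R:4020388-4020413, plus strand: CAGGATGTTGatcttgccattcatcc
D. mauritiana, DMRT1B, 3R:4020374-4020397, minus strand: CAACATCCTGctatccgcattcga
The Hmr1 pair had 2 and 3 reads and lies within the span of Myo81F. The D. mauritiana pair had 21 and 5 reads. Neither pair was read in another library.

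**Figure D5:**
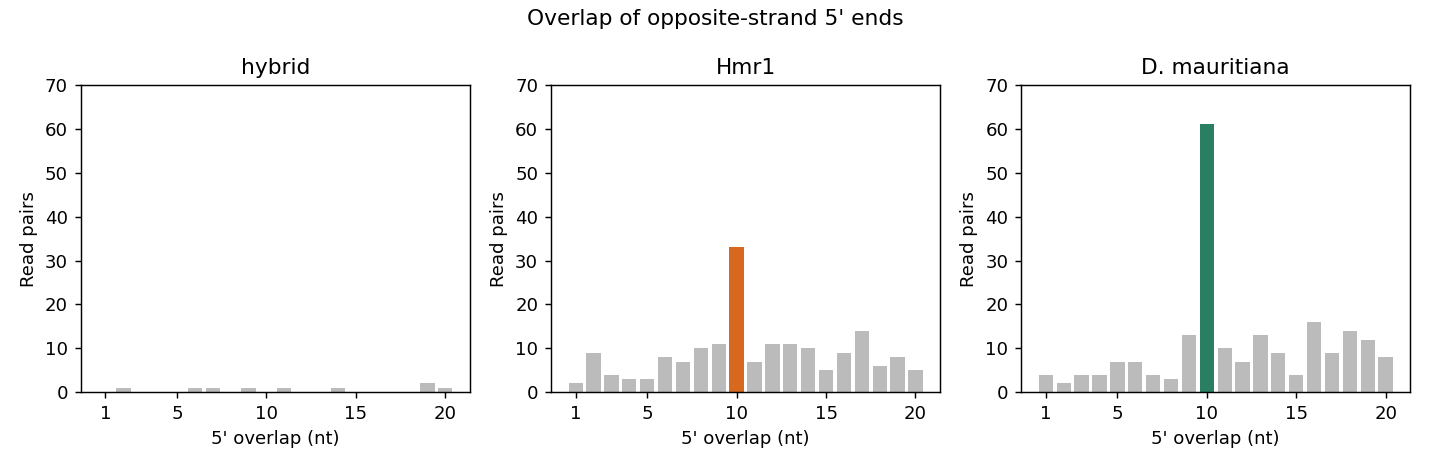
Read pairs on opposite strands (vertical axis) by the overlap of their 5′ ends (nt, horizontal axis) among single-hit reads of the region, with the 10-nt class in colour. The 10-nt bar stands at 61 in D. mauritiana and 33 in Hmr1, and the hybrid has 9 pairs in all.

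Much of the region lies within genes, several of which are very long here. The dm6 gene table has 101 genes overlapping it, 57 of them protein coding. Reads within gene spans, introns included, made up 54.9% (52.7 to 57.1) in the hybrid library, 43.4% (42.3 to 44.5) in that of Hmr1 and 41.1% (39.7 to 42.6) in that of D. mauritiana. The share of the region's bases within gene spans was not counted, so these values do not show a concentration of reads in genes. Whether a read lies in an exon or intron was not analysed here.

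Myo81F, at 3R:567076-2532932, held the most reads of any gene and spans 1966 kb. It had 527 reads in the hybrid library, 1663 in Hmr1 and 920 in D. mauritiana. These were 26.1%, 21.4% and 20.8% of the region's reads. Pzl, at 3R:2554162-3263582 and 709 kb long, followed with 152, 530 and 248 reads. Reads per gene were not scaled by length, so a high count does not show a concentration of reads in a gene. AGO3, at 3L:23554593-23689640, encodes the ping-pong partner of Aubergine and itself lies in the region. Single-hit transposon reads within its span numbered 13 in the hybrid library, 66 in Hmr1 and 19 in D. mauritiana. The ecdysone synthesis genes nvd and spok also lie here, with 22, 54 and 69 reads in nvd and 6, 18 and 14 in spok for the hybrid, Hmr1 and D. mauritiana. AGO3, nvd and spok were picked for what they encode, outside the naming rule.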

How the data were processed

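Testis small RNAs of 3 groups, with 1 library each, were used. The values are read counts deposited by the authors per distinct sequence, not scaled, with the number of genome hits, 1 listed hit, its strand and a repeat annotation. Sequences span 23 to 30 nt. The tools were cutadapt 1.8.1, Bowtie 1.2.2 and Bowtie 0.12.7 on genome build dm6, as listed per the submitters' processing notes. What each tool did, how many mismatches it allowed and where the repeat annotation came from is not given in the sources used here. Hits of D. mauritiana and hybrid reads are also on this D. melanogaster build; a read from a diverged copy may have no hit, and single-hit refers to that build.

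Counts were scaled per 1000000 reads of the library's transposon table, since the sources used here give no depth of the whole libraries. A count of 3 reads, used as the floor, is 17.0, 6.80 and 22.5 per 1000000 in the hybrid, Hmr1 and D. mauritiana. Shares have exact Clopper-Pearson, counts exact Poisson and ratios conditional binomial intervals at 95%. They cover counting error only, as reads carry no molecular identifiers and need not be separate molecules. Window log2 ratios used a pseudocount of 1 per 1000000 and windows with at least 20 reads in either library. Overlap pairs were weighted by the smaller count of the 2 positions. Python 3.11.15, pandas 2.3.3, numpy 2.4.6, scipy 1.17.1 and matplotlib 3.10.9 were used, and the procedures were tested on simulated data. Gene spans came from the RefSeq table of dm6, which was used without exons or strand.

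Named were the 10 windows and 10 repeats with most scaled reads, those with most reads per library, the 3 highest and 3 lowest windows of each comparison, and the most abundant sequences. Members, lists and rules were chosen with earlier results of these data known. Alternatives were other scalings, minimums, window sizes and limits, sequences counted once, and leaving out the highest window. Sequences with several hits, the VRr repeat table and the vasa table were not used here.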

Additional observations from a re-analysis of the deposited data

Results flagged for a closer look

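Sequences with several genome hits lie outside every comparison above, since their listed hit is 1 of several places. Those whose listed hit fell in the region had 17155 reads in the hybrid library, 52592 in Hmr1 and 20777 in D. mauritiana, or 9.75% (9.61 to 9.89), 11.9% (11.8 to 12.0) and 15.6% (15.4 to 15.8) of transposon reads. In each library these counts exceed the single-hit reads of the region. The median number of hits was 9, 13 and 10. The order of the libraries was that of the single-hit shares, and how many of these reads came from the region cannot be told apart from their other places.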

How the results depend on the processing

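The ratio of hybrid to Hmr1 over the region was 0.529 per single-hit read, 0.475 per single-hit read outside the region and 0.478 with each sequence counted once. Hybrid to D. mauritiana was 0.257, 0.170 and 0.373 under these settings, and Hmr1 to D. mauritiana 0.485, 0.359 and 0.781. Without the window with most reads, Hmr1 to D. mauritiana was 0.554. Added after seeing the data, scaling per single-hit read outside X gave 1.28, 0.778 and 0.609, the first in the opposite direction, and leaving out the window with most Hmr1 reads gave 0.699 for hybrid to Hmr1 and 0.494 for Hmr1 to D. mauritiana. Causes of these shifts were not tested.

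With a minimum of 10 reads, 15 of 233 windows were at least 2-fold higher and 137 lower for hybrid against Hmr1. For hybrid against D. mauritiana 16 of 109 windows were higher and 86 lower. For Hmr1 against D. mauritiana 107 of 266 windows were higher and 76 lower. With no minimum the higher and lower windows were 201 and 321 of 774, 283 and 283 of 712, and 333 and 223 of 750, in that order. With a minimum of 150 per 1000000, added after seeing the data, 3 and 11 of 14 windows were higher and lower for hybrid against Hmr1. At that minimum the counts were 2 and 44 of 47 for hybrid against D. mauritiana. For Hmr1 against D. mauritiana they were 10 and 45 of 56. Windows of 5 kb gave 3 of 47 higher for hybrid against D. mauritiana. Scaling outside X gave 8 of 88 higher and 43 lower for hybrid against Hmr1. Windows outside the region were counted under the main setting only.

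In D. mauritiana the plus-strand share was 47.3% with each sequence counted once and 43.7% without the highest window, and first-base T was 63.5% without that window. In Hmr1, A at base 10 was 31.9% with each sequence counted once. The 10-nt share was 29.8% in Hmr1 and 50.5% in D. mauritiana when pairs were weighted by the product of counts, and 20.1% in D. mauritiana with each pair of positions counted once. The other 71 values moved by less than the counting interval or by less than 1.5 times.

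No paired analysis was possible because each group has 1 library and no result comes from a test across samples; for the same reason no replicate was left out. In the hybrid 20 reads are 114 per 1000000, against 45.3 in Hmr1 and 150 in D. mauritiana, so low windows of the hybrid and D. mauritiana are out of reach. No scaling to whole libraries was run, since the sources used here give no depth for them.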

Other observations

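The genes below were picked after their values were known. They are not all at the ends of the range of strand shares, since all 11 hybrid reads of CG40160 lay on the plus strand. Dbp80, at 3L:27279316-27422159, had 36 of 41 hybrid and 55 of 59 Hmr1 reads on the plus strand, and 6 of 12 in D. mauritiana. l(3)80Fj, at 3L:27967244-28012599, had 18 hybrid reads, all on the minus strand, with 19 of 22 Hmr1 and 10 of 14 D. mauritiana reads there as well. CG40470, which holds the most abundant Hmr1 sequence, had 201 reads in Hmr1, 33 in the hybrid and 16 in D. mauritiana, with T first in 24.4% of the Hmr1 reads. Its most abundant sequence starts with G and gives 88 of those reads. Without it T came first in 43.4% (34.1 to 53.0) of 113 reads. No explanation of these values was tested.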
